A study of Mus musculus with 5 samples.

Results

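Ccl28 and 7 further CC chemokines (Ccl20, Ccl2, Ccl7, Ccl8, Ccl17, Ccl22 and Ccl25) were measured in epithelial tumour cells of the mouse prostate. The genes were selected on earlier results of these data, among them the nTKO minus nDKO difference of Ccl28, so their genotype differences are given as descriptions with no test. All probe sets that the platform annotation gives to only 1 of these symbols were taken, which gave 11 probe sets for the 8 genes, out of 45037 probe sets and 18193 genes in the table. Ccl28 has 3 probe sets, Ccl25 has 2 and each of the other genes has 1. CC chemokines are small secreted proteins with a pair of adjacent cysteines that bind to G protein-coupled receptors on leukocytes and direct where these cells go. Ccl28 and Ccl20 are epithelial chemokines of mucosal surfaces. Ccl2, Ccl7 and Ccl8 are largely products of stromal and myeloid cells, Ccl17 and Ccl22 of dendritic cells and macrophages, and Ccl25 of thymic and small-intestinal epithelium. In a bulk preparation, fewer cells of a type and less RNA per cell cannot be told apart.

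The 2 groups were nTKO and nDKO prostate tumours from C57BL/6 mice. In nTKO mice floxed alleles that include Smad4 and Pygo2 are deleted under the prostate-specific Probasin driver, and nDKO mice carry the same deletions except that of Pygo2, a chromatin-bound co-activator of beta-catenin. Smad4, the shared mediator of TGF-beta signalling, is thus targeted in both groups, and no group with intact alleles was compared. Tumours were dissociated on ice, EpCAM beads were used to collect the tumour cells, and 1 array was run per mouse. The nTKO mice were 31.43 weeks (nTKO 1) and 16 weeks old (nTKO 2), and the nDKO mice were 15.86 weeks (nDKO 1), 10.71 weeks (nDKO 2) and 10.71 weeks old (nDKO 3), so that genotype and age cannot be told apart fully. Values are log2 signals, on which 1 unit is a 2-fold difference.

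The arrays had medians of 4.94 to 4.98. Pygo2 had 7.30 and 6.35 in nTKO cells, against 8.65, 8.62 and 8.72 in nDKO cells, lower in nTKO cells as the labels give it. Smad4, targeted in both groups, was read above the array median on all 5 arrays by each of its 3 probe sets, at 8.42 to 10.37 in nTKO cells and 8.14 to 9.88 in nDKO cells. The log2 differences of these probe sets were 0.27 to 0.40, and where they lie relative to the deleted part of Smad4 is not known here. The epithelial markers were bright on every array, with Epcam at 13.24 and 13.41 in nTKO cells and 12.94 to 13.48 in nDKO cells. The Probasin gene itself, Pbsn, was at 3.81 and 8.15 in nTKO cells and 3.33 to 5.43 in nDKO cells. This mark of differentiated prostate secretory cells lay below the array median on 3 of the 5 arrays. Of the 6 prostate luminal markers measured, 4 (Tmprss2, Hoxb13, Krt7 and Psca) lay above it on all 5 arrays, beside 11315 of all 18193 genes. Msmb lay above it on 1 array. The arrays nTKO 1 and nDKO 1 stood apart, the oldest mouse of each genotype. The suprabasal keratin Krt10 measured 13.04 in nTKO 1 and 13.03 in nDKO 1, against 6.71 to 6.93 on the other 3 arrays. Results that rest on these 2 arrays are given with and without them.

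The upstream sequences of the 3 members with the widest spread between mice are shown because these members had signals well above the array median. Each runs from 250 bases before to 50 bases after the annotated start (RefSeq, GRCm38.p6). Capitals mark letters that match GGG and CC with any 5 bases between them (a loose form of the NF-kB site), TATAA, or CTTTGA, the core of the site bound by the TCF partners of beta-catenin, on either strand.
Ccl28 promoter, chr13:119623569-119623868, + strand: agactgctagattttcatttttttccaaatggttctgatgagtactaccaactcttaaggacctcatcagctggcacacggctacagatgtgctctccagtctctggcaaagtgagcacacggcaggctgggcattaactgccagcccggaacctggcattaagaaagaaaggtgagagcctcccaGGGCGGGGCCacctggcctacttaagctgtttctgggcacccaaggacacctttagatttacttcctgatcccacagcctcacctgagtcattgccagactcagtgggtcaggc
Ccl20 promoter, chr1:83116516-83116815, + strand: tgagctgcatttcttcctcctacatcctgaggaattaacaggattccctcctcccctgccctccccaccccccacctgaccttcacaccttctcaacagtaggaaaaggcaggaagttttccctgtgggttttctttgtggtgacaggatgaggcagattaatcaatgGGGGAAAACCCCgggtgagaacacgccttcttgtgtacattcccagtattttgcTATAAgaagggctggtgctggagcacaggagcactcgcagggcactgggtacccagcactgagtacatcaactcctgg
Ccl8 promoter, chr11:82114935-82115234, + strand: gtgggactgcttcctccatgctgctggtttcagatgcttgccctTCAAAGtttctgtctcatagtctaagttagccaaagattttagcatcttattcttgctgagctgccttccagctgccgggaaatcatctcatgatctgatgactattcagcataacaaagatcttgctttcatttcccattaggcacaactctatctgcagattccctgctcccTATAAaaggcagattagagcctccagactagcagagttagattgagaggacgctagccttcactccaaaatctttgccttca
In Ccl20 the capitals around position -82 hold 4 overlapping matches to the loose NF-kB form on both strands, and TATAA starts at -28. In Ccl28 the only match is 1 GC-rich run at -64. Ccl8 has TATAA at -32 and CTTTGA, read on the other strand, at -206. Of 32851 promoters of the same length, 50.8% held at least 1 match to the loose NF-kB form, 24.9% held TATAA and 16.0% held CTTTGA. A single match of any of them is thus common. The share of promoters with 4 overlapping matches, as in Ccl20, was not counted. Of the 8 genes, 6 had an entry in the promoter table.

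Ccl28, an epithelial chemokine that attracts IgA-producing plasma cells and regulatory T cells through Ccr10 and eosinophils through Ccr3, spanned the widest range of the 8 genes. Its bright probe set, 1455577_at, had signals of 10.05 in nTKO 1 and 8.58 in nTKO 2, against 6.61 in nDKO 1, 8.56 in nDKO 2 and 8.31 in nDKO 3. The nTKO mean was 9.32 (SD 1.04, n = 2) and the nDKO mean 7.83 (SD 1.06, n = 3), a log2 difference of 1.49 (SE 0.82), or 2.81-fold. The 2 genotypes did not overlap, but the margin was small, since nTKO 2 exceeded nDKO 2 by 0.020. The middle 3 arrays, nTKO 2, nDKO 2 and nDKO 3, lay close together, and the difference came from the 2 ends, nTKO 1 as the highest and nDKO 1 as the lowest. The range over the 5 arrays was 3.44 log2 units, and 0.379% of all genes had a range at least as wide. Ccl28 had been singled out for this difference.

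The difference of Ccl28 depended on those 2 mice. It was 0.75 without nTKO 1, 0.88 without nDKO 1, and 0.15 (nTKO 2 minus the mean of nDKO 2 and nDKO 3) without both. Between the mice closest in age, nTKO 2 (16 weeks) and nDKO 1 (15.86 weeks), it was 1.97, and with log2 age as a covariate it was 1.45. Krt10 was equally high in nTKO 1 and nDKO 1, but 7 of the 8 squamous markers were highest in nDKO 1. Krt13 had 9.62 in nTKO 1 and 11.97 in nDKO 1, and Sprr3 had 4.98 and 7.03. Ccl28 was highest in nTKO 1 and lowest in nDKO 1. The summed signal of the 8 squamous markers (linear scale) ranged from 8900 to 28208 in nTKO cells and from 11977 to 39238 in nDKO cells, and its part in the Ccl28 difference was not tested.

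The other Ccl28 probe sets, 1450217_at and 1450218_at, were dim. The first had 4.74 and 4.50 in nTKO cells, against 4.29, 4.55 and 4.42 in nDKO cells. The second had 4.38 and 4.05 in nTKO cells, against 3.91, 4.05 and 3.98 in nDKO cells. Both lay below the array median on all 5 arrays, and in both the highest array was nTKO 1 and the lowest nDKO 1, as in the bright probe set. Their log2 differences were 0.20 (SE 0.12) and 0.24 (SE 0.12), far smaller than 1.49, and the genotypes overlapped in the first and touched at 4.05 in the second. Where the probe sets lie in the transcript is not known here.

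**Figure D1:**
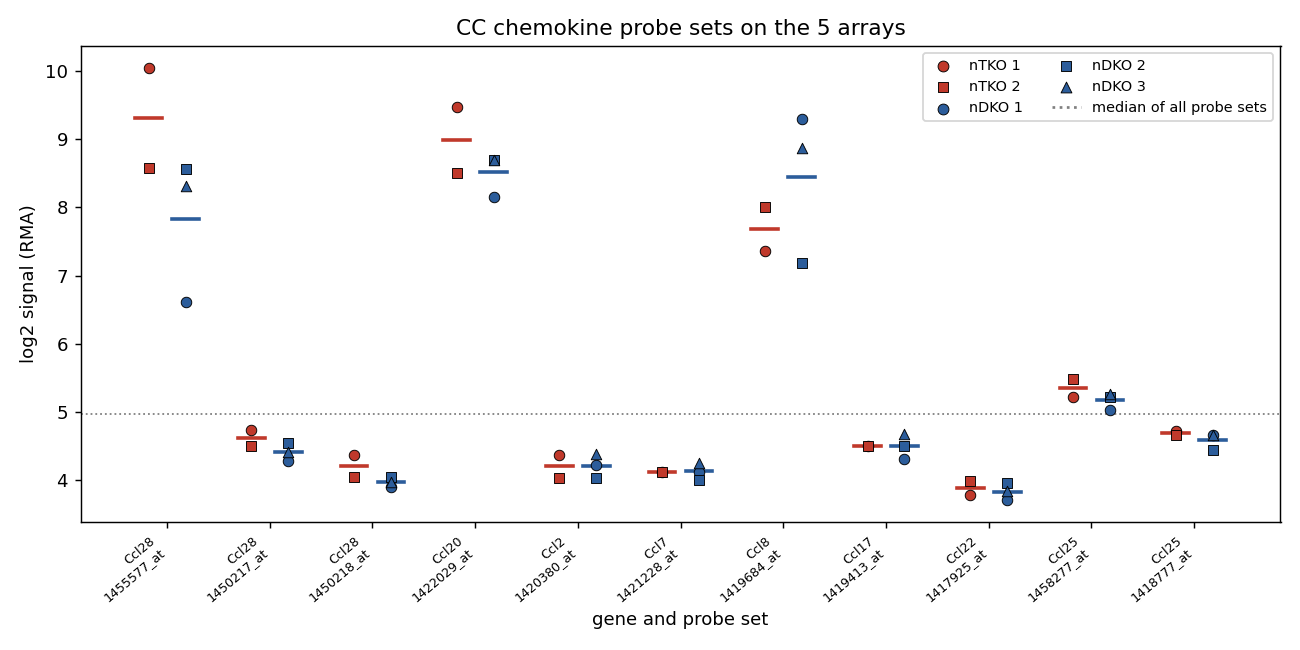
Log2 signal of the 11 probe sets of the 8 CC chemokine genes; each point is 1 array (nTKO in red on the left, nDKO in blue on the right, symbols give the mouse), short bars are group means and the dotted line is the median of all probe sets. The bright Ccl28 probe set has its highest value, 10.05, in nTKO 1 and its lowest, 6.61, in nDKO 1, Ccl20 and Ccl8 also vary between mice, and the other 8 probe sets stay between 3.71 and 5.49.

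Taking the 11 probe sets as a group, the nTKO mean was higher for 8 and lower for 3. The genotypes did not overlap for 1 of 11, the bright Ccl28 probe set, beside 12.2% of all probe sets. A difference of at least 1 log2 unit was found for the same 1 of 11, beside 0.342% of all probe sets. The members were chosen with this comparison known, so nothing is read from these counts. At the level of genes, the median log2 difference of the 8 brightest probe sets was 0.03, and that of all 18193 genes was 0.028. In limma's test over the whole table, 0 of 45037 probe sets (0.0%) had an adjusted p under 0.05, and 1710 (3.8%) had an unadjusted p under 0.05.

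Genes with a pattern like that of Ccl28 were sought among the 1308 genes that ranged over at least 1 log2 unit, by the root mean square difference between centred values over the 5 arrays. The closest was Nxpe2 (0.23 log2 units), followed by the transcription factor Mkx (0.28), the glutathione transferase Gstt1 (0.29), the CXCR3 ligand Cxcl11 (0.32) and the acute-phase protein Saa2 (0.44). Gstt1 had 10.43 and 9.45 in nTKO cells, against 7.74, 9.13 and 8.73 in nDKO cells, with no overlap. Cxcl11 had 8.57 and 6.65 in nTKO cells, against 5.51, 6.59 and 6.65 in nDKO cells, with nTKO 2 level with nDKO 3. Each of the 5 genes was highest in nTKO 1 and lowest in nDKO 1, which the choice by likeness favours. With 5 arrays, many genes can resemble each other, and other probe sets of Nxpe2 and Cxcl11 were dim and showed differences of at most 0.017. Among the listed genes, Ccl20 came closest to Ccl28, at 0.71, followed by the seminal vesicle gene Svs5 and the cytokine Il1b, both at 0.78. Each of the 6 seminal vesicle markers measured was lowest in nDKO 1 and highest in nDKO 3. Their summed linear signal was 25128 to 32261 in nTKO cells and 8692 to 61376 in nDKO cells. The part of such cells in the Ccl28 values was not tested.

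**Figure D2:**
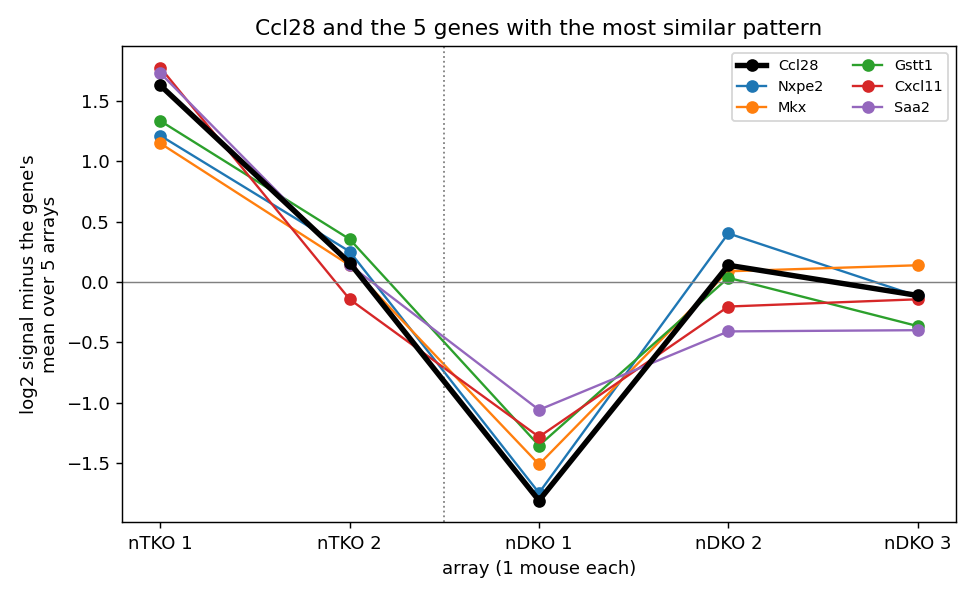
Centred log2 signal (each gene's value minus its own mean over 5 arrays, y axis) of Ccl28 (thick black line) and its 5 closest genes on each array (x axis, 1 mouse per array; lines only join points of a gene). All 6 genes peak in nTKO 1 and are lowest in nDKO 1, while nTKO 2 lies near nDKO 2 and nDKO 3.

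Ccl20, the ligand of Ccr6 that attracts IL-17-producing T cells, B cells and immature dendritic cells, had signals of 9.47 in nTKO 1 and 8.51 in nTKO 2, against 8.16 in nDKO 1, 8.70 in nDKO 2 and 8.70 in nDKO 3. It was highest in nTKO 1 and lowest in nDKO 1, and nTKO 2 fell within the nDKO range. The nTKO mean was 8.99 (SD 0.68, n = 2) and the nDKO mean 8.52 (SD 0.31, n = 3), a log2 difference of 0.47 (SE 0.36). With log2 age in the fit it came to 0.13, and it was 0.29 without nDKO 1, 0.95 without nTKO 2, -0.010 without nTKO 1 and -0.19 without both nTKO 1 and nDKO 1, so that its sign followed 1 mouse. The closest genes to Ccl20, by the same measure but chosen after the values were seen, were Bst1 (0.097), the B cell survival factor Tnfsf13b (0.11), the adenylate kinase Ak4 (0.11), the inflammatory transcription factor Cebpd (0.11) and Lyst (0.12). Among the listed genes it was nearest to the chemokine Ccl4 (0.20), then to the neutrophil genes Mmp9 (0.28), Cxcr2 (0.31) and Csf3r (0.34). The neutrophil markers were highest in nTKO 1, with S100a8 at 12.79 in nTKO 1 and 8.30 in nTKO 2, against 9.66 to 10.53 in nDKO cells. Over the 6 of 8 neutrophil markers measured, the summed linear signal was 757 to 15473 in nTKO cells and 1649 to 2774 in nDKO cells, and its part in the Ccl20 values was not tested.

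Ccl2, Ccl7 and Ccl8 lie in the chemokine cluster on chromosome 11, where Ccl7 follows Ccl2 and Ccl8 sits between Ccl12 and Ccl1 in the RefSeq gene order. Ccl2, the main ligand of Ccr2, had signals of 4.38 and 4.03 in nTKO cells, against 4.22, 4.04 and 4.39 in nDKO cells. Ccl7, a second Ccr2 ligand, had 4.13 and 4.13 in nTKO cells, against 4.13, 4.01 and 4.26 in nDKO cells. Both genes stayed below the array median on all 5 arrays, with log2 differences of -0.012 (SE 0.16) and -0.0033 (SE 0.085). At this signal an array may not respond to the transcript, so like values do not show like amounts.

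Ccl8, which in the mouse acts through Ccr8, lay above the array median on all 5 arrays. Its signals were 7.36 and 8.01 in nTKO cells, against 9.30, 7.18 and 8.87 in nDKO cells. The nDKO mice thus held both the highest and the lowest value, and both nTKO mice lay between them. The nTKO mean was 7.69 (SD 0.46, n = 2) and the nDKO mean 8.45 (SD 1.12, n = 3), a log2 difference of -0.77 (SE 0.74). It was -0.34 without nDKO 1, -0.56 without nDKO 3, -1.40 without nDKO 2, -0.44 without nTKO 1, and -0.015 without both nTKO 1 and nDKO 1. Its range of 2.12 log2 units was reached by 1.37% of all genes, and its direct neighbour Ccl12 ranged over 2.01.

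Genes were ranked by likeness to Ccl8 in the same way. Over all genes the closest, in a search made after the values were seen, were the endothelin receptor Ednrb (0.14), the macrophage lectin Clec10a (0.27), Npl (0.28), the CC chemokine Ccl6 (0.30) and the macrophage coagulation factor subunit F13a1 (0.33). Among the listed genes they were Ccl6, Ccl9 (0.37), the monocyte receptor Ccr2 (0.42), the scavenger receptor Cd163 (0.52) and the complement gene C1qa (0.60). Clec10a had 4.93 and 6.00 in nTKO cells, against 6.93, 4.94 and 7.17 in nDKO cells. For Ccl8, Ccl6, Ccl9, Ccr2, Cd163 and C1qa, nDKO 1 and nDKO 3 were the 2 highest arrays, a pattern that the choice by likeness favours. Of the 11 measured macrophage markers, 3 (C1qa, Cd163 and Cd68) had these 2 arrays on top and 8 did not, while nDKO 3 was highest for all 11. For Ccl8 itself the highest array was nDKO 1. Of 12 macrophage markers 11 were measured, and their summed linear signal ranged from 1810 to 2543 in nTKO cells and from 1568 to 3710 in nDKO cells. Of these 11 markers 8 lay above the array median on all 5 arrays, beside 11315 of all 18193 genes. The part of macrophages in the Ccl8 values was not tested.

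**Figure D3:**
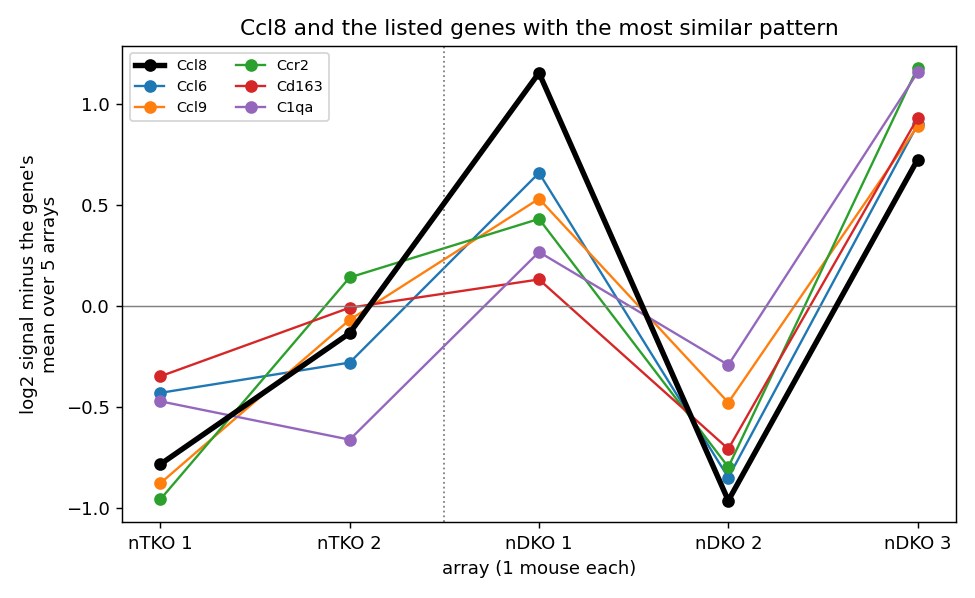
Centred log2 signal (y axis, value minus the gene's own mean over 5 arrays) of Ccl8 (thick black line) and the 5 closest genes of the listed pathways and markers on each array (x axis). The genes were chosen for likeness to Ccl8, and all 6 have their 2 highest values in nDKO 1 and nDKO 3, as 3 of the 11 macrophage markers do, and the nTKO arrays do not lie outside the nDKO range for Ccl8.

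**Figure D4:**
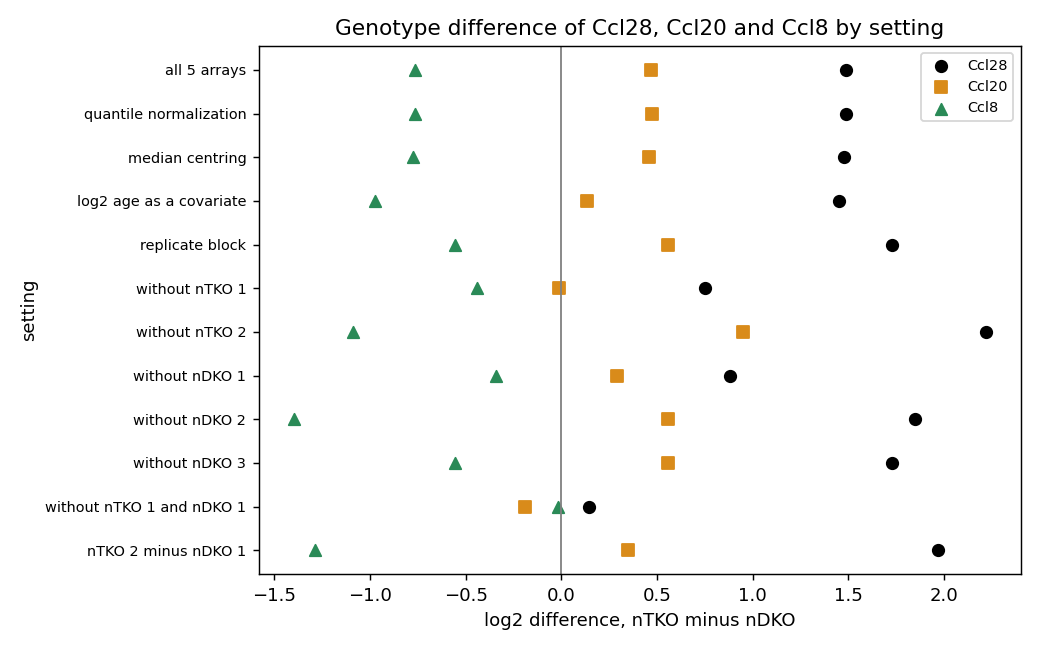
Log2 difference of nTKO minus nDKO (x axis) for the brightest probe sets of Ccl28, Ccl20 and Ccl8 under each setting (y axis), among them leaving out 1 array. Without nTKO 1 and nDKO 1 the Ccl28 and Ccl8 differences are 0.15 and -0.015, and the Ccl20 difference is -0.19.

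Ccl17 and Ccl22, the ligands of Ccr4 that attract regulatory and type 2 helper T cells, lie on either side of Cx3cl1 on chromosome 8. Ccl17 had 4.51 and 4.51 in nTKO cells, against 4.32, 4.51 and 4.68 in nDKO cells. Ccl22 had 3.79 and 3.99 in nTKO cells, against 3.71, 3.96 and 3.84 in nDKO cells. Neither reached the array median on any array, and the log2 differences were 0.0067 (SE 0.12) and 0.053 (SE 0.11). Both nTKO values of Ccl17 equalled that of nDKO 2, which leaves 3 distinct values on 5 arrays. The dendritic cell markers had array medians of 4.90 and 4.79 in nTKO cells and 4.72 to 5.12 in nDKO cells, over 9 of 10 markers measured.

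Ccl25, the thymic and intestinal ligand of Ccr9, had 2 probe sets. The brighter, 1458277_at, had 5.23 and 5.49 in nTKO cells, against 5.03, 5.23 and 5.27 in nDKO cells. The dimmer, 1418777_at, had 4.72 and 4.66 in nTKO cells, against 4.66, 4.44 and 4.66 in nDKO cells. The mean was higher in nTKO cells by 0.18 (SE 0.12) and 0.10 (SE 0.089), and the genotypes overlapped or touched in both. The difference of the brighter probe set was 0.053 without nTKO 2 and 0.31 without nTKO 1, and that of the dimmer was 0.030 without nDKO 2. The highest array was nTKO 2 in the first and nTKO 1 in the second, so the probe sets did not order the mice alike. Between nTKO 2 and nDKO 1 alone the difference was 0.46 for the brighter and 0 for the dimmer probe set.

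Of 16 other CC chemokines, 10 had a probe set of their own, and 0 of 10 passed limma's test in either direction, with 5 means higher in nTKO cells, 4 lower and 1 equal (median log2 difference 0.043). The myeloid chemokines Ccl6 and Ccl9 were the brightest. Ccl9 had 7.63 and 8.44 in nTKO cells, against 9.04, 8.03 and 9.40 in nDKO cells (log2 difference -0.79, SE 0.52, limma adjusted p = 0.799). Ccl6 had 8.60 and 8.75 in nTKO cells, against 9.69, 8.18 and 9.93 in nDKO cells (log2 difference -0.59, SE 0.60, limma adjusted p = 0.829). The second probe set of each gave values in the same direction, -1.19 for Ccl9 and -0.74 for Ccl6. Ccl12, Ccl3 and Ccl4 were highest in nTKO 1 instead. Ccl12, a mouse Ccr2 ligand, had 6.07 and 4.55 in nTKO cells, against 4.76, 4.06 and 4.89 in nDKO cells (0.74, SE 0.56, limma adjusted p = 0.799). Ccl3 had 7.85 and 5.90 in nTKO cells, against 6.66, 6.70 and 6.99 in nDKO cells, so that the nTKO mice held both extremes. Ccl4 had 8.16 and 6.75 in nTKO cells, against 6.99, 7.26 and 7.37 in nDKO cells, with the same order at both ends. Ccl5, which attracts T cells, had 6.71 and 6.71 in nTKO cells, against 5.85, 6.44 and 7.03 in nDKO cells, with its highest value in nDKO 3. The log2 difference of the eotaxin Ccl11 was -0.080, of Ccl1 -0.063 and of Ccl27a 0.087, and Ccl24 had equal means. Of these 10 genes, 0 had genotypes that did not overlap, beside 12.8% of all genes.

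The receptors of these ligands were mostly dim in this epithelial preparation. Of the 11 receptor genes analysed, 7 lay below the array median on all 5 arrays, beside 5945 of all 18193 genes. None of the 11 passed limma's test (median log2 difference 0.045, 8 means higher and 2 lower). Ccr10, the main receptor of Ccl28, had 4.55 and 4.49 in nTKO cells, against 4.54, 4.64 and 4.70 in nDKO cells (-0.11, SE 0.064, limma adjusted p = 0.799). Ccr3 had 3.10 and 3.47 in nTKO cells and 3.24 on all 3 nDKO arrays. Ccr6, the receptor of Ccl20, had 4.89 and 4.74 in nTKO cells, against 4.33, 4.74 and 4.74 in nDKO cells (0.21, SE 0.16). Ccr4 differed by 0.020, Ccr8 by 0.010 and Ccr9 by 0.045, all below the array median.

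Among the receptors, Ccr1 and Ackr1 lay above the array median on all 5 arrays, and Ccr2 and Ackr4 on 4. Ccr2 had 4.98 and 6.08 in nTKO cells, against 6.37, 5.14 and 7.12 in nDKO cells (-0.68, SE 0.72, limma adjusted p = 0.836). Ccr1, shared by several inflammatory CC chemokines, had 8.20 and 5.78 in nTKO cells, against 6.79, 6.10 and 7.23 in nDKO cells, with nTKO mice at both ends. Of the atypical receptors, which bind chemokines without signalling through G proteins and clear them, Ackr4, which binds Ccl25 among others, had no overlap between genotypes, at 5.23 and 5.14 in nTKO cells, against 5.07, 5.02 and 4.98 in nDKO cells. Its log2 difference was 0.16 (SE 0.055, limma adjusted p = 0.799), and 2 other probe sets gave -0.020 and 0.077. Ackr1 differed by 0.12, and Ackr2 had the same value of 4.18 on every array.

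Genes known to induce epithelial chemokines gave 0 calls as well. Of 13 measured NF-kB pathway genes, 7 means were higher in nTKO cells and 5 lower (median 0.12). The NF-kB feedback inhibitor Tnfaip3 had 8.86 and 8.63 in nTKO cells, against 7.93, 8.46 and 8.41 in nDKO cells, without overlap (0.48, SE 0.20, limma adjusted p = 0.799, and 0.16 by its other probe set). The inhibitor Nfkbia had 12.09 and 12.09 in nTKO cells, against 11.66, 12.03 and 12.05 in nDKO cells. It did not overlap either, by a margin of 0.04 (0.18, SE 0.15, limma adjusted p = 0.802), while Bcl3 (0.18) overlapped. The array nDKO 1 held the lowest value of Tnfaip3 and Nfkbia, and of Birc3, Icam1, Tnip1, Nfkb2 and Nfkbie. The others went differently, with Relb, Rela and Ikbke lowest in nTKO 1, Nfkbiz in nTKO 2, and Bcl3 and Rel in nDKO 2. Genes outside this pathway, among them Epcam, Krt8 and Pigr, were also lowest in nDKO 1. The share of all genes lowest in that array was not counted, so no likeness to Ccl28 or Ccl20 is read from this. The part of the NF-kB genes in the Ccl28 and Ccl20 values was not tested.

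Among 12 inducing cytokines and receptors, 8 means were higher and 4 lower. Tnf had 6.90 and 6.95 in nTKO cells, against 6.72, 6.84 and 6.84 in nDKO cells (0.13, SE 0.064), and the IL-17 receptor subunit Il17rc had 7.76 and 7.64 in nTKO cells, against 7.93, 8.09 and 7.91 in nDKO cells (-0.28, SE 0.087). Both had a limma adjusted p of 0.799 and no overlap. Il1b, which is known to induce Ccl20, had 9.94 and 7.71 in nTKO cells, against 8.11, 8.41 and 8.60 in nDKO cells, with nTKO mice at both ends. Both Il1b and Ccl20 were highest in nTKO 1, but Il1b was lowest in nTKO 2 and Ccl20 in nDKO 1. Of the 12 genes of this list, 5 were highest in nTKO 1 and 7 were not, among them Tnf, highest in nTKO 2, and Il17a, lowest in nTKO 1. The part of these genes in the Ccl20 values was not tested.

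Hypoxia genes were listed because low oxygen is known to raise CCL28 in human tumour cells. Of 12, the mean was higher in nTKO cells for 11 and lower for 1 (median 0.21), beside 10912 higher of all 18193 genes. The genotypes of 4 did not overlap (beside 12.8% of all genes), and 0 passed limma's threshold. The 1 lower was Car9, at 9.02 and 7.70 in nTKO cells, against 9.11, 8.30 and 8.35 in nDKO cells, highest where Ccl28 was lowest. Of the 12 genes, 8 were highest in nTKO 1, the oldest mouse, 2 in nDKO 1 and 2 in nDKO 2. Bnip3 had 11.34 and 11.08 in nTKO cells, against 10.51, 10.81 and 10.85 in nDKO cells (0.49, SE 0.15, limma adjusted p = 0.799), and Pfkfb3 differed by 0.61 (SE 0.19), although its other probe set gave -0.068. The part of hypoxia genes in the Ccl28 values was not tested.

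Of 10 mucosal secretory genes, the tissue setting in which Ccl28 is best known, 7 means were higher and 3 lower (median 0.16), and 0 were called. Agr2, a disulfide isomerase of mucus-producing cells, had 10.77 and 10.88 in nTKO cells, against 10.24, 10.30 and 10.46 in nDKO cells, without overlap (0.49, SE 0.093, limma adjusted p = 0.799), and its other probe set gave 0.28. Tff3 had 6.20 and 6.55 in nTKO cells, against 6.20, 5.76 and 5.92 in nDKO cells. The 3 lower were Muc1 at -0.71 (SE 0.41), Muc4 at -0.66 (SE 1.01) and Ltf at -0.19 (SE 0.30), all with overlap. Pigr, the receptor that carries IgA across epithelium, was bright throughout, at 13.55 and 13.73 in nTKO cells and 13.26 to 13.59 in nDKO cells.

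Of the markers of cells that these chemokines attract, 7 of 11 for T cells and 4 of 6 for B and plasma cells lay below the array median on all 5 arrays. The same held for 4 of 9 dendritic cell markers and 0 of 11 macrophage markers, beside 5945 of all 18193 genes. The T cell markers had array medians of 4.61 and 4.35 in nTKO cells and 4.12 to 4.45 in nDKO cells, and the regulatory T cell factor Foxp3 had 4.14 and 3.74 in nTKO cells, against 3.90, 3.90 and 3.82 in nDKO cells. Of the 6 measured B and plasma cell markers, Jchain, which joins IgA into dimers, had 8.52 and 7.94 in nTKO cells, against 7.66, 5.73 and 7.75 in nDKO cells, without overlap (1.18, SE 0.74, limma adjusted p = 0.799). The other markers did not share a difference of that size. Over all 6 the means split into 3 higher and 3 lower in nTKO cells (median log2 difference -0.0033). The 3 lower were the plasma cell gene Mzb1 at -0.11, Pou2af1 at -0.020 and Ms4a1 at -0.045. Higher beside Jchain were Cd79b, at 0.013, and Cd79a, at 0.17 (SE 0.060). Cd79a did not overlap either, with 4.45 and 4.44 in nTKO cells, against 4.18, 4.32 and 4.32 in nDKO cells. The B cell markers Ms4a1, Cd79a and Cd79b stayed below the array median on every array. Summed over the 6 markers, the linear signal was 352 to 484 in nTKO cells and 162 to 333 in nDKO cells. Without Jchain the sum of the other 5 was 106 to 117 in nTKO cells and 109 to 118 in nDKO cells, so that Jchain carried the gap. Any link of these values to Ccl28 was not tested.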

How the data were processed

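RNA of EpCAM-selected prostate tumour cells was hybridised to single-channel Affymetrix mouse arrays, 2 nTKO and 3 nDKO, each from a different mouse. The authors deposited log2 signals with 2 decimals for each probe set, computed in the Transcriptome Analysis Console with RMA per the submitters' processing notes; no version of either is given in the sources used here. RMA corrects for background, equalises the distributions of the arrays and draws dim probe sets towards a floor, so that a shift shared by most genes would not show. Scanner files were not used, and the number of arrays limits the precision.

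The table held 45037 probe sets, of which 34945 had 1 gene symbol, 932 several and 9160 none. A gene was read at its brightest probe set with a single symbol. nTKO was compared with nDKO by limma 3.58.1 in R 4.3.3 (lmFit, then eBayes with an intensity trend, tested on simulated data) over all probe sets, with 3 residual and 1.18 prior degrees of freedom, no filter or covariate, and a call at a two-sided Benjamini-Hochberg adjusted p under 0.05. SEs are moderated by eBayes. The p-values measure the spread between these mice.

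The members, lists and alternatives were chosen with earlier results of these data known. Named were all members, receptors and other CC chemokines with probe sets of their own, in each further pathway list (not the cell marker lists) the 2 genes with the smallest p and those of at least 1 log2 unit without overlap, the targeted genes and the 5 genes most like Ccl28, predicted genes left out; further genes named, among them Nfkbia, Il1b, Pigr, Jchain, Foxp3 and the genes like Ccl20 and Ccl8, were chosen after their values were seen. Ccl19, Ccl21a to Ccl21c, Ccl26, Ccl27b and Nfkb1 were not analysed here as single genes. Some items, among them further targeted alleles, are not reported here.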

Additional observations from a re-analysis of the deposited data

How the results depend on the processing

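The count of probe sets with a limma adjusted p under 0.05 was 0 in the comparison of all arrays and under each alternative tested, as were the counts in each of the 6 pathway lists. The count with an unadjusted limma p under 0.05 was 1710 of 45037 probe sets, against 4091 with log2 age in the fit. At least 2-fold as well were 51, against 587 with the age covariate and 90 with the replicate block. With 1 probe set per gene the 2 counts were 689 and 24 of 18193. Among probe sets at or above the median level, 990 had an unadjusted limma p under 0.05. These last counts come from fewer probe sets, so they cannot be set directly against 1710 and 51.

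The Ccl28 difference of 1.49 was 0.75 to 2.22 with 1 mouse left out, 0.15 without both oldest mice, and 0.20 and 0.24 by its dim probe sets. It was positive in all 16 alternatives, but some of these could not change it. A change of the probe sets fitted or of the eBayes trend leaves a difference of means as it is. Ccl20 was -0.010 to 0.95 with 1 mouse left out and -0.19 without both oldest mice. With log2 age as a covariate Ccl20 was 0.13, Ccl2 -0.23, Ccl22 0.27 and Ccl25 0.45, and in the pair of like age Ccl17 was 0.19, Ccl22 0.28 and Ccl25 0.46. The small differences of Ccl2, Ccl7, Ccl17 and Ccl22 took both signs over the alternatives. Ccl8 was negative in all 14, which include the settings that could not change it, and was -0.015 without both oldest mice. Nothing is read from these counts of signs. The cause of these shifts was not tested, beyond the mice left out. With the replicate number as a block, Ccl28 was 1.73, Ccl20 0.56 and Ccl8 -0.56. The numbers come from the labels, which name no shared litter or day, so the block is an alternative only. Deviations from the group means correlated at 0.38 and 0.31 in the same-numbered pairs and at -0.38, -0.31, -0.24 and 0.24 in the others; with 2 nTKO arrays these values mirror each other, so they cannot settle whether the numbers pair the arrays. Quantile normalization and median centring changed the nTKO minus nDKO difference by a median of -0.014 and -0.010 over all probe sets. Probe sets near the floor limit what can be seen of 7 of the 11 probe sets.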

Other observations

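The genes beside Ccl28 on chromosome 13 were read after the Ccl28 values were seen. In the RefSeq gene order (GRCm38.p6) its nearest protein-coding neighbours are Tmem267 on one side and Hmgcs1 on the other. Tmem267, which encodes a membrane protein, had 8.08 and 7.81 in nTKO cells, against 5.76, 5.64 and 7.09 in nDKO cells, a log2 difference of 1.78 (SE 0.52, limma adjusted p = 0.799) with no overlap. Its nDKO order differed from that of Ccl28, since nDKO 2 was lowest for Tmem267 and nDKO 1 for Ccl28. Hmgcs1, an enzyme of cholesterol synthesis, had 9.89 and 10.20 in nTKO cells, against 10.81, 10.02 and 10.01 in nDKO cells, with the highest value in the mouse where Ccl28 was lowest.

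On the side of Tmem267, Nnt, the mitochondrial transhydrogenase that carries a known deletion in the C57BL/6J substrain, had 8.24 and 7.62 in nTKO cells, against 7.26, 7.15 and 7.42 in nDKO cells, without overlap (0.65, SE 0.22, limma adjusted p = 0.799), and 0.64 by its second probe set. Of the Paip1 probe sets, 2 were high in nDKO 1 alone (Paip1 lies between Nnt and 4833420G17Rik). The first, 1441955_s_at, measured 7.15 in nDKO 1, against at most 3.26 in nTKO cells and 3.23 and 3.15 in the other nDKO mice. The second, 1425521_at, measured 5.35 in nDKO 1, against 2.86 and 2.85 in nTKO cells and 2.87 and 2.82 in the other nDKO mice. The brightest Paip1 probe set showed no such gap, with 8.64 and 8.49 in nTKO cells and 8.30 to 8.68 in nDKO cells. Of the 23 probe sets of the 10 nearest neighbours, 5 had genotypes that did not overlap, beside 12.2% of all probe sets, and 0 had a limma adjusted p under 0.05. These were the probe sets of Nnt and Tmem267, and a dim one of Hmgcs1 that was lower in nTKO cells (-0.32). The labels give the strain as C57BL/6 without a substrain, and any part of genetic background in these values was not tested.

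Of the 4 CC chemokine probe sets shared by several gene symbols, the one that includes Ccl19 had 4.75 and 5.33 in nTKO cells, against 4.75, 4.73 and 4.77 in nDKO cells. The brighter of the 2 that include Ccl27a had 7.07 and 6.77 in nTKO cells, against 6.54, 7.25 and 6.98 in nDKO cells.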
